A study of Mus musculus with 6 samples.

Results

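Leukocyte marker genes were followed in the tibialis anterior (TA) muscle of aged mice, as a set of 36 genes named by symbol and divided by lineage. These are 6 genes shared by leukocytes, 5 myeloid genes, 10 macrophage and monocyte genes, 4 genes of class II antigen presentation, 4 T cell genes, 5 B and plasma cell genes and 2 neutrophil genes, and all 36 were matched among the 55416 genes of the count table. RNA sequencing had been run on TA muscle of 3 WT and 3 SELENOW KO mice, natural aging, 24 months old, and as described for the study the mice were male on a C57BL/6N background, with free access to diet. The KO is a whole-body deletion of exon 4 of Selenow, so exon 4 was missing from the leukocytes of these mice as well as from their myofibres, and nothing in the labels says that the replicates came from separate litters or cages. The whole muscle was used as the source of RNA with no sorting of cells, and p-values here measure only the spread between these samples.

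Muscle holds a small resident population of macrophages, few lymphocytes, and the blood cells left in its vessels. Macrophages clear debris, present peptides on class II molecules and make complement C1q, while T cells recognise such peptides through a receptor that signals through CD3, and plasma cells secrete antibody built from heavy, light and joining chains. Monocytes enter tissue from blood through the chemokine receptor CCR2, and neutrophils carry the calcium-binding pair S100A8 and S100A9.

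Promoters are shown for H2 class II and C1q members, because the H2 class II genes and the C1q genes each lie together in the genome. Their RNA is compared below. Cd74, also of the class II group, lies on another chromosome. RefSeq promoters (GRCm38.p6) were matched by symbol for 24 of the 36 members, and no entry was used for Itgb2, Cd52, Tyrobp, Adgre1, Csf1r, C1qa, Cd74, H2-Ab1, Cd4, Ms4a1, Ighm and Igkc. The 250 bases before the start were searched on both strands for the Y box letters CTGATTGG, an element known from class II promoters, and for AGGAAGT, the core recognised by ETS factors such as PU.1 of myeloid cells. The Y box letters lay in 2 members, H2-Aa and H2-Eb1, and in 3.83% of all 32851 promoters. They are in capitals below, at bases 51 to 44 before the start of H2-Aa (chr17:34287824-34287943, minus strand) and at bases 62 to 55 before that of H2-Eb1 (chr17:34305747-34305866, plus strand).
H2-Aa: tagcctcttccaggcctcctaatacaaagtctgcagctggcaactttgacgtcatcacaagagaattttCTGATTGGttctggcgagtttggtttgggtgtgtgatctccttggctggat
H2-Eb1: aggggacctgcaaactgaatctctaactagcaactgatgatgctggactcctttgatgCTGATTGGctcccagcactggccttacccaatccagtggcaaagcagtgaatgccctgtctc

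The ETS letters lay in 8 of the 24 matched genes (33.3%), namely Ptprc, Lyz2, C1qb, C1qc, Mrc1, Cd3e, Cd79a and S100a8, and in 7.69% of all promoters. The first share counts genes, any promoter of a gene being enough, and the 24 genes have 27 promoters, whereas the second counts single promoters. In the neighbouring C1qb (chr4:136886201-136886410, minus strand) and C1qc (chr4:136892915-136893124, minus strand) they are read on the other strand. The capitals below are therefore their reverse complement, ACTTCCT. A match of letters is a description of the sequence and no evidence that a factor binds there.
C1qb: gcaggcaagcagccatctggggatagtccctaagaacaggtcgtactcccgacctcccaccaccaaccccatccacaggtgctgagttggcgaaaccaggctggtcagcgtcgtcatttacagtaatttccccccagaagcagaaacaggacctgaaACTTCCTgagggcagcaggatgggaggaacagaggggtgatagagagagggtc
C1qc: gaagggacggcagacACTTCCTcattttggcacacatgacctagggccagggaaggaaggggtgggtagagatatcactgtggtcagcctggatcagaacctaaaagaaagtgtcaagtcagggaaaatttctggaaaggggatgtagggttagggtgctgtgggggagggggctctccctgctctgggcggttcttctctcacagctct

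The libraries held 25351976 to 29111213 counts, of which mitochondrially encoded genes took 29.1% to 37.3% in WT and 35.4% to 40.3% in KO. Levels are given as CPM, the share of a library's counts on a fixed scale, adjusted by TMM factors of 0.893 to 1.20, and 3 counts, the most that a count of 0 allows, correspond to 0.0934 to 0.122 CPM, for counting error only. Selenow had 219 to 268 CPM in WT and 193 to 212 CPM in KO (log2 fold change -0.25 ± 0.14 SE, n = 3 per genotype, edgeR adjusted p = 0.604), and because the count covers exons outside the deletion it does not check the genotype. Myofibre markers summed to at least 77286 CPM in every library, so the samples were muscle as labelled. Of 15623 tested genes 836 (5.35%) met the DEG thresholds of the study, an unadjusted p under 0.05 with a fold change over 1.5 or under 0.7. Of these 345 (2.21%) were higher and 491 (3.14%) lower in KO, a split that became 80 higher and 1712 lower when counts were scaled by library totals alone. No gene had an adjusted p under 0.05 with edgeR's quasi-likelihood test, against 1545 (9.89%) at an unadjusted p under 0.05 and 45 genes with DESeq2.

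The 36 members together took 0.00588% to 0.0227% of the counts of a library. Their summed counts were 2626, 2650 and 5758 in WT 1, 2 and 3 and 2369, 1609 and 1634 in KO 1, 2 and 3. WT 3 stood apart: it was the highest of the 6 libraries for 24 of the 36 members, whereas it was highest for 16.3% of all tested genes. KO 3 was the lowest library for 19 members, as compared with 13.5% of all tested genes. WT 3 was the highest library for 5 of 6 shared leukocyte genes, 5 of 5 myeloid, 9 of 10 macrophage and 4 of 4 class II genes, but for 1 of 4 T cell genes and for none of the 5 B and plasma cell or 2 neutrophil genes. Values without WT 3 therefore stand beside the main results. The labels name no batch, and fewer cells of a type and less RNA per cell cannot be told apart in RNA of a whole muscle.

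**Figure D1:**
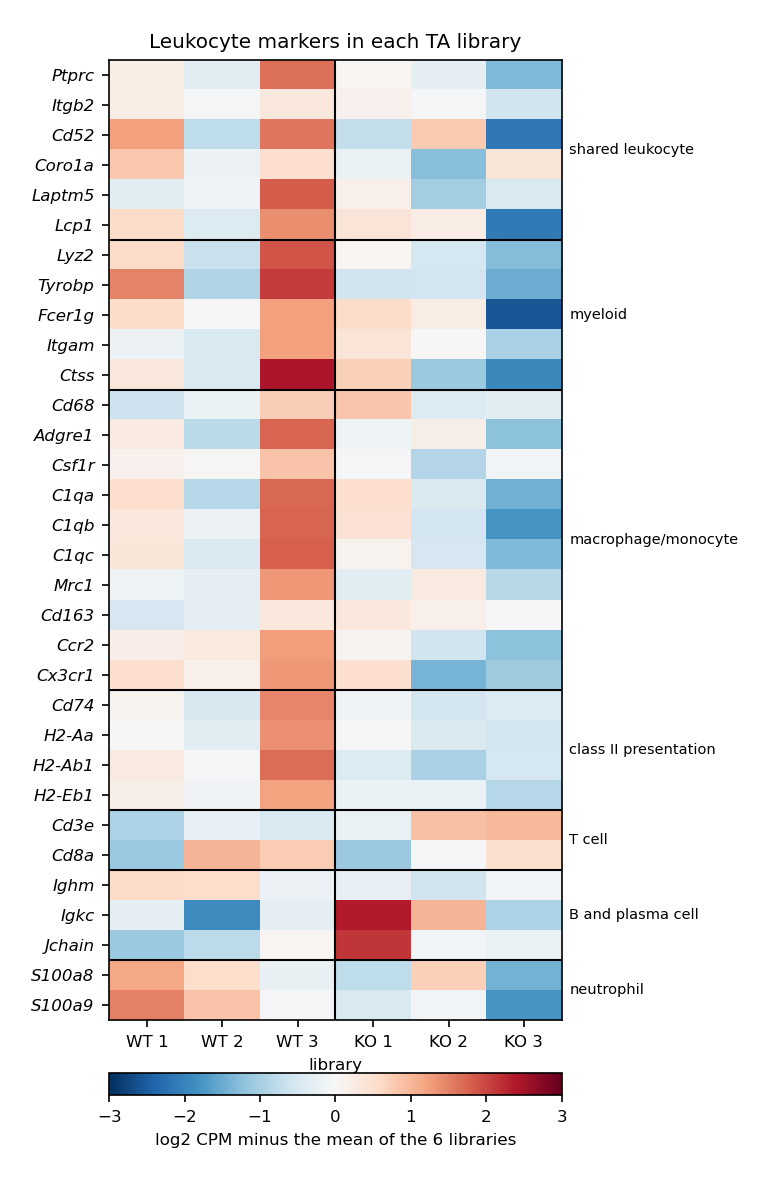
Each row is a member with at least 10 counts in total, each column a library, and the colour is the log2 CPM (prior count 1) minus the mean of that gene over the 6 libraries, so that 0 is the mean of the gene. Red fills the WT 3 column from Ptprc down to H2-Eb1, blue is deepest in KO 3, and Igkc and Jchain are instead highest in KO 1.

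Fibroblast and collagen markers also summed highest in WT 3. They summed to 151, 79.6 and 282 CPM in WT 1, 2 and 3 and to 151, 69.6 and 115 CPM in KO 1, 2 and 3, with none of the 7 genes past the thresholds. Endothelial markers went the other way and were lowest in WT 3, with 101, 80.6 and 59.8 CPM in WT and 91.2 to 107 CPM in KO. The part of the cell makeup of the WT 3 sample in the leukocyte values was not tested.

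In KO mice 6 members were lower and 2 higher than in WT mice past the DEG thresholds, which 5.35% of all tested genes met. The lower members were Csf1r, Ccr2, H2-Ab1, H2-Eb1, Ighm and S100a9, and the higher were Cd3e and Jchain. Of the 36 members 28 were tested and 8 fell under the filter on low counts, namely Tyrobp, Cx3cr1, Cd3g, Cd4, Cd8a, Cd79a, Ms4a1 and S100a8. Cd52, Jchain and S100a9 passed that filter with fewer than 2 libraries of a genotype above it, so both Jchain and S100a9 entered the test through the genotype in which they were high. Among the tested members 23 had a negative and 5 a positive log2 fold change with a median of -0.92, beside a median of -0.0042 and 49.4% positive among all tested genes. The adjusted p of the 8 members was 0.316 to 0.499 with edgeR, and no member passed an adjusted p of 0.05 with edgeR or DESeq2. In edgeR without the filter on low counts 8 members did so, beside 363 of 31780 genes. The libraries of the genotypes did not overlap for 6 members, with KO below WT for Csf1r, Ccr2, H2-Ab1, H2-Eb1 and S100a9 and above for Cd3e, as compared with 15.4% of all tested genes (7.87% with KO below and 7.53% with KO above). Without WT 3 the median of the tested members was -0.32, and 5.77% of all tested genes met the thresholds. Of the 8 members 5 still did so: Cd3e, H2-Ab1, Ighm, Jchain and S100a9.

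**Figure D2:**
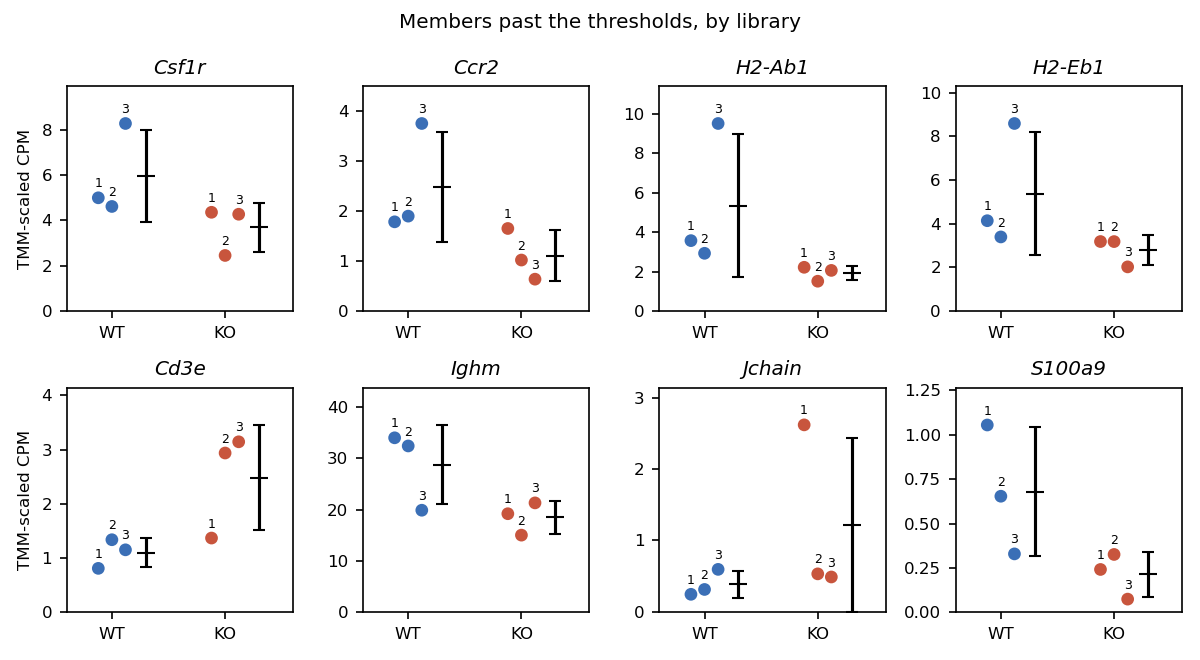
The 8 members past the DEG thresholds, with TMM-scaled CPM on the vertical axis, 1 point per library numbered by replicate, and the mean with its SD (n = 3) as a bar to the right of each genotype. WT 3 lies above the other WT libraries for Csf1r, Ccr2, H2-Ab1 and H2-Eb1, at 8.27, 3.75, 9.52 and 8.60 CPM, and the Jchain mean of KO rests on KO 1 at 2.62 CPM.

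The 6 genes shared by leukocytes all had negative log2 fold changes, and none met the thresholds (median -1.03). Ptprc, the phosphatase CD45 carried by nucleated blood cells, had 1.18, 0.778 and 3.19 CPM in WT 1, 2 and 3 and 1.05, 0.815 and 0.374 CPM in KO 1, 2 and 3. WT 3 was high and KO 3 low while the other libraries mixed, and the log2 fold change was -1.21 ± 0.57 (SE, n = 3 per genotype, edgeR adjusted p = 0.540). Laptm5, a lysosomal membrane protein of blood cells and the highest of these genes per kilobase, had 1.22, 1.43 and 5.53 CPM in WT and 1.73, 0.734 and 1.12 CPM in KO. Its log2 fold change went from -1.19 to -0.15 without WT 3. Cd52, a small surface glycoprotein, had 18, 5 and 29 counts in WT and 4, 13 and 1 in KO, so 1 to 29 counts stood behind its log2 fold change of -1.33 ± 0.83 (SE). For Cd52 172 of the 1187 counted bases are shared with an exon of Crybg2, which had at most 1 count in a library. Lcp1, which bundles actin in leukocytes, had 46, 30 and 102 counts in WT and 41, 36 and 7 in KO, again with WT 3 at the top and KO 3 at the bottom, and its log2 fold change of -0.87 was -0.31 without WT 3. Coro1a, another actin regulator of leukocytes, had 33, 21 and 33 counts in WT and 16, 7 and 26 in KO, with KO 3 within the WT range. Itgb2, the shared beta chain of leukocyte integrins, showed the smallest difference of the 6, with 0.560 to 0.758 CPM in WT, 0.374 to 0.644 CPM in KO and a log2 fold change of -0.34 ± 0.41 (SE). The median of this group was -0.35 without WT 3.

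The myeloid genes had the widest range between libraries and none met the thresholds. Lyz2, the lysozyme of myeloid cells, was the highest member of the group per kilobase, at 14.8 CPM per kilobase in WT and 5.44 in KO. It had 14.9, 6.35 and 37.2 CPM in WT 1, 2 and 3 and 10.5, 6.97 and 4.04 CPM in KO 1, 2 and 3. KO 3 lay below all WT libraries, but KO 1 and KO 2 lay above WT 2, and the log2 fold change was -1.45 ± 0.80 (SE, edgeR adjusted p = 0.638). Ctss, a lysosomal protease that trims the class II invariant chain, had 2.84, 1.62 and 12.2 CPM in WT and 3.71, 1.02 and 0.561 CPM in KO. WT 3 held 5.45 times the mean of the other WT libraries, and the log2 fold change of -1.66 ± 1.14 (SE) became -0.34 without it.

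The signalling adaptors Tyrobp and Fcer1g were near the limit of detection in KO 3. Tyrobp had 28, 6 and 54 counts in WT and 6, 6 and 3 in KO, so that WT 2 was level with KO 1 and KO 2, and it was not tested. Fcer1g had 23, 20 and 46 counts in WT and 23, 18 and 2 in KO, and only KO 3 stood clear of the WT libraries (-0.83, and -0.43 without WT 3). Itgam, the alpha chain of the integrin CD11b, had 15, 16 and 51 counts in WT and 23, 17 and 9 in KO. Its log2 fold change was -0.52 ± 0.53 (SE) and changed sign to 0.23 without WT 3, and its values are uncertain because 68.7% of its counted bases are shared with Gm49368 on the same strand.

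**Figure D3:**
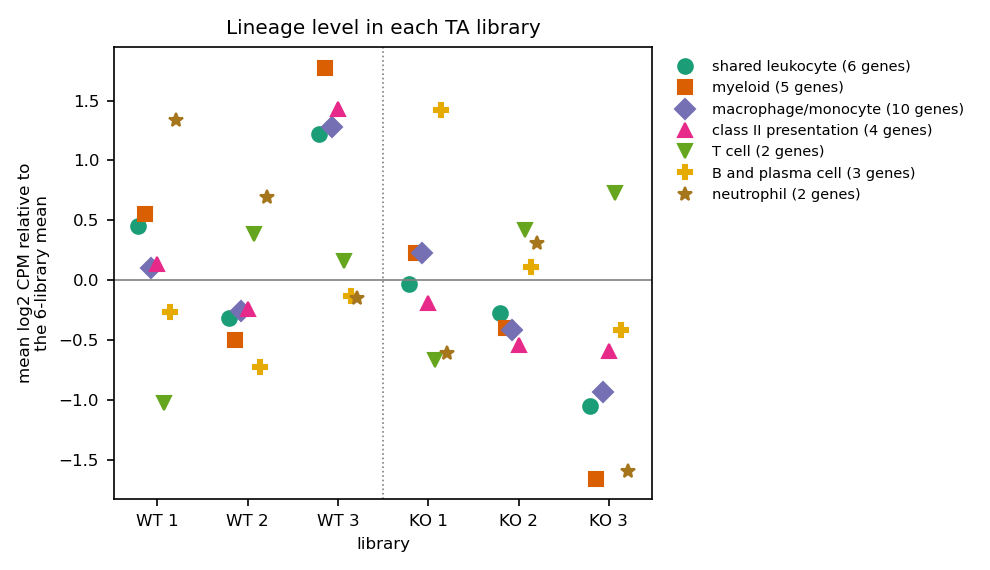
For each library (horizontal axis) the mean over the genes of a lineage of log2 CPM relative to the mean of each gene over the 6 libraries, with the number of genes that had at least 10 counts in the key. The myeloid, macrophage, class II and shared leukocyte points of WT 3 lie between 1.22 and 1.78, whereas the B and plasma cell point is highest in KO 1 (1.42), the T cell point in KO 3 (0.73) and the neutrophil point in WT 1 (1.34).

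Of the 10 macrophage and monocyte genes Csf1r and Ccr2 met the thresholds, both lower in KO, and the other 7 tested genes did not (3.14% of all tested genes were lower). Csf1r, the receptor for the growth factor on which macrophages depend, had 4.99, 4.61 and 8.27 CPM in WT 1, 2 and 3 and 4.35, 2.45 and 4.26 CPM in KO 1, 2 and 3. The genotypes did not overlap, but KO 1 and KO 3 lay just under WT 2. The means were 5.95 ± 2.01 CPM in WT and 3.69 ± 1.08 CPM in KO (SD, n = 3), with a log2 fold change of -0.69 ± 0.28 (SE, edgeR adjusted p = 0.470), and without WT 3 it was -0.38 and no longer met the thresholds. It also missed them without KO 2, at -0.47. For Csf1r 873 of 5774 counted bases are shared with Hmgxb3 on the opposite strand, which had 147, 279 and 188 counts in WT and 155, 133 and 203 in KO, and its part in the Csf1r values was not tested.

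Ccr2 (chr9:124101950-124113557, GRCm38) had 1.78, 1.90 and 3.75 CPM in WT 1, 2 and 3 and 1.65, 1.02 and 0.636 CPM in KO 1, 2 and 3. Every KO library lay below every WT library, although KO 1 and WT 1 were close. The log2 fold change was -1.18 ± 0.39 (SE, edgeR adjusted p = 0.375), with means of 2.48 ± 1.11 CPM in WT and 1.10 ± 0.513 CPM in KO (SD, n = 3). Ccr2 met the thresholds in every alternative fit except the one without WT 3, where it was -0.75. Cx3cr1, the fractalkine receptor of resident macrophages and patrolling monocytes, had 10, 10 and 22 counts in WT and 10, 2 and 3 in KO and was not tested.

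The complement C1q chains, made by tissue macrophages from a cluster of 3 neighbouring genes, followed each other over the libraries. C1qa had 2.56, 0.965 and 5.96 CPM in WT and 2.54, 1.30 and 0.636 CPM in KO. C1qc had 1.87, 1.06 and 5.11 CPM in WT and 1.57, 1.02 and 0.561 CPM in KO, and C1qb ranged over 1.31 to 5.07 CPM in WT and 0.411 to 2.01 CPM in KO. In each of them WT 3 was highest and KO 3 lowest, and KO 1 fell within the WT range. The largest log2 fold change of the 3, that of C1qc, was -1.35 ± 0.66 (SE, edgeR adjusted p = 0.571) and became -0.47 without WT 3.

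Cd68 and Cd163 were the only macrophage members with a positive log2 fold change. Cd68, a lysosomal glycoprotein and over all libraries the highest macrophage member per kilobase, had 2.15, 2.90 and 5.53 CPM in WT and 5.92, 2.49 and 2.62 CPM in KO. KO 1 and WT 3 were high and the other 4 libraries similar, with a log2 fold change of 0.05 ± 0.46 (SE). Cd163, the haemoglobin scavenger receptor of resident macrophages, had 2.35, 2.77 and 4.18 CPM in WT and 4.15, 3.75 and 3.33 CPM in KO. All KO libraries lay above WT 1 and WT 2 and below WT 3, and the log2 fold change of 0.27 ± 0.24 (SE) became 0.54 without WT 3. The signs of both depend on the scaling, with log2 fold changes of -0.24 for Cd68 and -0.01 for Cd163 when counts were scaled by library totals alone, which moved the median of all tested genes to -0.25. Mrc1, the mannose receptor of resident macrophages, had 1.37 to 4.22 CPM in WT and 0.935 to 2.04 CPM in KO, and its log2 fold change of -0.74 ± 0.48 (SE) was -0.02 without WT 3. Adgre1, which encodes F4/80, had 17, 10 and 61 counts in WT and 13, 16 and 6 in KO, and -1.11 ± 0.67 (SE) became -0.08 without WT 3.

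**Figure D4:**
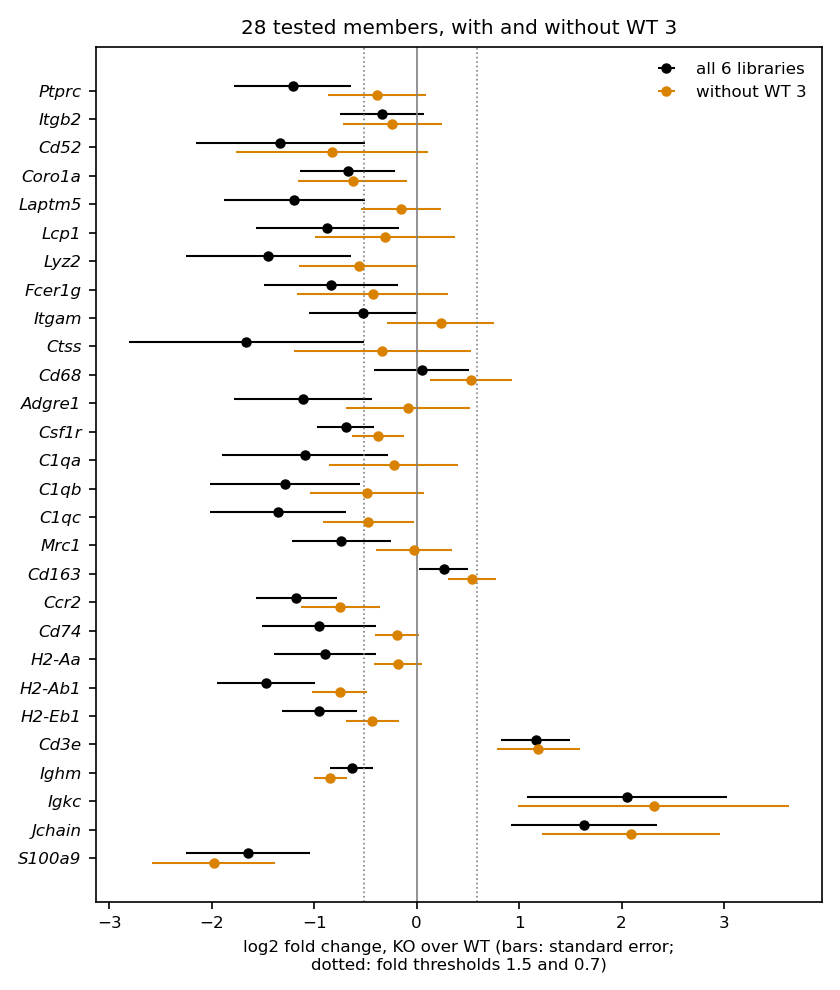
Log2 fold change (KO over WT) with its standard error for the 28 tested members in all 6 libraries (black) and without WT 3 (orange). Dotted lines mark the fold thresholds 1.5 and 0.7. The orange points of the shared, myeloid, macrophage and class II genes lie to the right of the black ones, as Lyz2 from -1.45 to -0.57 and Adgre1 from -1.11 to -0.08, while that of H2-Ab1 moves from -1.47 to -0.75 and that of Cd3e from 1.16 to 1.19.

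Class II genes had a median log2 fold change of -0.95, and H2-Ab1 and H2-Eb1 met the thresholds as lower in KO. H2-Ab1 (chr17:34257689-34269419, GRCm38), a beta chain of the class II molecule, had 3.57, 2.93 and 9.52 CPM in WT 1, 2 and 3 and 2.22, 1.51 and 2.06 CPM in KO 1, 2 and 3. The genotypes did not overlap, and the KO libraries lay closer together than the WT libraries. Means were 5.34 ± 3.63 CPM in WT and 1.93 ± 0.371 CPM in KO (SD, n = 3), with a log2 fold change of -1.47 ± 0.48 (SE, edgeR adjusted p = 0.419). H2-Ab1 was the one lower member of the macrophage and class II groups that met the thresholds without WT 3, at -0.75, and it missed them without KO 2 (-1.32).

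H2-Eb1 (chr17:34305867-34316674, GRCm38), the other beta chain, had 4.14, 3.39 and 8.60 CPM in WT and 3.18, 3.18 and 2.02 CPM in KO. All KO libraries lay under WT 2, 2 of them narrowly. The log2 fold change was -0.95 ± 0.37 (SE, edgeR adjusted p = 0.461) and missed the thresholds without WT 3 (-0.43) and without KO 3 (-0.76). H2-Aa, the alpha chain that pairs with the H2-Ab1 product, had 4.99, 3.92 and 12.9 CPM in WT and 4.83, 3.63 and 3.29 CPM in KO, with KO 1 between WT 2 and WT 1. Cd74, the invariant chain and the highest class II member per kilobase, had 8.27, 5.48 and 21.1 CPM in WT and 7.09, 5.18 and 5.76 CPM in KO. Neither H2-Aa (-0.89 ± 0.50 SE) nor Cd74 (-0.95 ± 0.56 SE) met the thresholds, and without WT 3 they stood at -0.18 and -0.19.

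The counts of H2-Ab1 were also set against those of each of 22 other tested members of the shared leukocyte, myeloid, macrophage and class II groups, a step chosen after the lower H2-Ab1 of KO was known. The KO libraries lay below the WT libraries for 5 of these ratios, those to Cd74, H2-Aa, Cd68, Cd163 and Csf1r, and the genotypes overlapped for the other 17. H2-Ab1 alone already lay lower in every KO library, and Cd68 and Cd163 were the only denominators with a positive log2 fold change. These ratios are therefore no separate support for a lower H2-Ab1, and the share of such ratios over other pairs of genes was not computed. The ratio to Cd74 was 0.431, 0.534 and 0.452 in WT 1, 2 and 3 and 0.312, 0.291 and 0.357 in KO 1, 2 and 3, with WT 3 inside the range of the other WT libraries. The ratio to H2-Aa was 0.715, 0.746 and 0.739 in WT and 0.458, 0.416 and 0.625 in KO. The ratio to Ptprc, in contrast, was 3.03, 3.76 and 2.98 in WT and 2.12, 1.85 and 5.50 in KO, and that to Lyz2 was 0.239, 0.461 and 0.256 in WT and 0.212, 0.216 and 0.509 in KO. KO 3, in which Ptprc and Lyz2 were lowest, lay above every WT library for 11 of the 22 ratios.

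Further macrophage genes were taken from a separate list of 30. Of these 21 were tested, 4 met the thresholds as lower in KO (3.14% of all tested genes) and none as higher, the median log2 fold change was -1.05 (-0.43 without WT 3), and WT 3 was the highest library for 25 of the 30. Cd33, a sialic acid receptor of myeloid cells, had 0.406, 0.374 and 1.88 CPM in WT and 0.363, 0.163 and 0.187 CPM in KO, and its log2 fold change of -1.89 ± 0.71 (SE) became -0.70 without WT 3. Ms4a6c had 0.892, 0.623 and 2.60 CPM in WT and 0.725, 0.571 and 0.150 CPM in KO, and -1.52 ± 0.66 (SE) became -0.65. WT 3 was far above the other libraries for both. Pf4, a chemokine, and Spi1, which encodes the myeloid transcription factor PU.1, were lower by log2 fold changes of -1.10 ± 0.45 and -1.08 ± 0.46 (SE), and stood at -0.98 and -0.95 without WT 3. None of the 4 met the thresholds without WT 3. Cd33, Pf4 and Spi1 are among 7 genes of the list that passed the filter on low counts through 1 genotype, here WT. Pf4 also marks platelets, whose other markers reached at most 15 counts in a library. These other markers summed to 0.593 to 0.654 CPM in WT and to 0.673 to 1.33 CPM in KO. Among 26 chemokine and growth factor genes, 11 of them tested, Ccl6 (-1.25 ± 0.39 SE, edgeR adjusted p = 0.340) and Ccl9 (-1.08 ± 0.46 SE), both made by myeloid cells, were lower and none was higher. Neither met the thresholds without WT 3, at -0.68 and -0.72. Of all tested genes 3.14% were lower and 2.21% higher, and the median of the 11 tested chemokine and growth factor genes was -0.05 (-0.11 without WT 3). None of 5 tested genes of class II processing and none of 11 tested class I genes met the thresholds, with medians of -0.37 and -0.04 (-0.06 and 0.01 without WT 3).

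T cell members did not move together. Cd3e (chr9:44998740-45009627, GRCm38), a signalling chain of the T cell receptor complex, had 20, 43 and 35 counts in WT 1, 2 and 3 and 34, 72 and 84 in KO 1, 2 and 3, or 0.811, 1.34 and 1.15 CPM and 1.37, 2.94 and 3.14 CPM. KO 2 and KO 3 were high and KO 1 lay just above the highest WT library, WT 2. Means were 1.10 ± 0.267 CPM in WT and 2.48 ± 0.969 CPM in KO (SD, n = 3), and the log2 fold change was 1.16 ± 0.34 (SE, edgeR adjusted p = 0.316). It met the thresholds in every alternative fit, at 0.95 to 1.45 when a library was left out.

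The defining partners of Cd3e in T cells were at or near 0 in every library. Cd3g, the neighbouring CD3 chain, had 0, 0 and 1 counts in WT and 0, 1 and 1 in KO. Cd4, the coreceptor of helper T cells, had 0, 1 and 2 counts in WT and 0, 0 and 1 in KO, and Cd8a, that of cytotoxic T cells, had 0, 4 and 3 counts in WT and 0, 1 and 2 in KO. The 170 variable segments of T cell receptor genes summed to 3, 3 and 6 counts in WT and 2, 9 and 2 in KO. No difference between genotypes was detectable in these genes at this depth. The counted bases of Cd3e share 135 of 4080 with Gm48719 on the opposite strand, which had 14, 18 and 17 counts in WT and 10, 26 and 34 in KO, high in the same KO libraries as Cd3e, and the study's methods name no handling of strand. Lymph node stroma markers summed to 0.856 to 1.71 CPM in WT and to 0.725, 4.93 and 1.12 CPM in KO 1, 2 and 3. The sum of KO 2 came mostly from Cxcl13, at 4.16 CPM from 102 counts. Of the other stroma genes in KO 2, Ccl21a had 17 counts, within its WT range of 11 to 27, Fcer2a had 2, and Ccl19, Cr2 and Glycam1 had 0. The part of Gm48719 or of lymph node tissue in the Cd3e values was not tested.

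Of 24 further T and NK cell genes only 4 were tested, with a median log2 fold change of 0.06 (-0.03 without WT 3). Cd247, the zeta chain of the receptor complex, was the one past the thresholds, as higher in KO (2.21% of all tested genes). It had 2.03, 1.25 and 1.45 CPM in WT and 2.18, 2.45 and 2.88 CPM in KO. Its genotypes did not overlap (7.53% of all tested genes had KO above). The log2 fold change was 0.68 ± 0.26 (SE, edgeR adjusted p = 0.440), which became 0.62 and missed the thresholds without WT 3. The other tested genes, Zap70, Thy1 and Foxp3, had log2 fold changes of 0.15, -0.41 and -0.03.

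**Figure D5:**
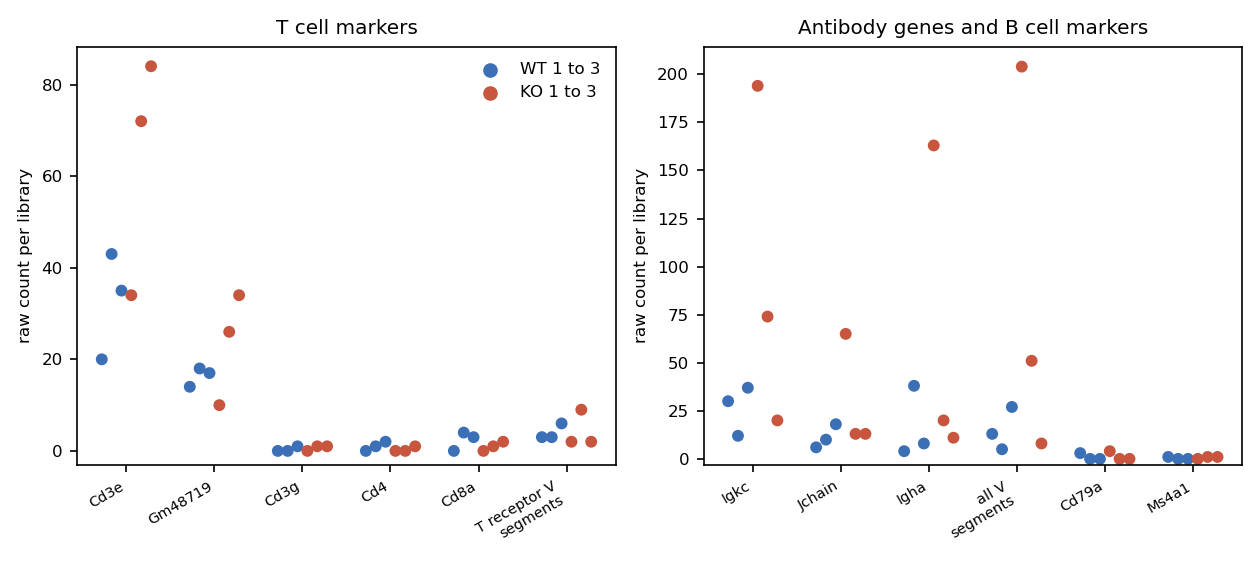
Raw counts per library for T cell markers with Gm48719, the gene that overlaps Cd3e (left), and for antibody genes and B cell markers (right), with WT 1 to 3 in blue and KO 1 to 3 in red from left to right within each gene. Cd3e reaches 72 and 84 counts in KO 2 and KO 3 while Cd3g and Cd4 reach at most 1 and 2, and Igkc, Jchain, Igha and the summed variable segments are highest in KO 1, at 194, 65, 163 and 204 counts. Ighm is not drawn.

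The antibody genes did not move together. Ighm (chr12:113418558-113422730, GRCm38), the constant region of IgM and the highest of all members per kilobase (15.3 CPM per kilobase in WT and 9.82 in KO), had 34.0, 32.4 and 19.9 CPM in WT 1, 2 and 3 and 19.2, 15.0 and 21.3 CPM in KO 1, 2 and 3. WT 1 and WT 2 were high, and WT 3 lay between KO 1 and KO 3. The log2 fold change was -0.63 ± 0.21 (SE, edgeR adjusted p = 0.384), with means of 28.8 ± 7.72 CPM in WT and 18.5 ± 3.19 CPM in KO (SD, n = 3). It was -0.84 without WT 3, and it missed the thresholds without WT 1 or without KO 2, at -0.50 in both. In counts Ighm had 838, 1041 and 604 in WT and 477, 369 and 570 in KO. Igkc, the kappa light chain, had far fewer, at 30, 12 and 37 in WT and 194, 74 and 20 in KO. The 185 heavy chain variable segments summed to 3, 0 and 13 counts in WT and 42, 9 and 1 in KO. The source of the Ighm counts was not tested.

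Igkc, the constant region of the kappa light chain, had 1.22, 0.374 and 1.22 CPM in WT and 7.81, 3.02 and 0.748 CPM in KO. KO 1 and KO 2 were high while KO 3 fell within the WT range, and with a log2 fold change of 2.05 ± 0.97 (SE, edgeR adjusted p = 0.581) it did not meet the thresholds. Jchain (chr5:88519809-88527891, GRCm38), the joining chain that links secreted IgM and IgA, had 6, 10 and 18 counts in WT and 65, 13 and 13 in KO. Only KO 1 stood clear of the WT libraries. The log2 fold change of 1.63 ± 0.71 (SE, edgeR adjusted p = 0.499) became 0.39 without KO 1 and then missed the thresholds. Jchain missed them in 6 of 15 alternatives, also without WT 1 (1.41) or WT 2 (1.49), with library totals in place of TMM (1.35), with the replicate block (1.27), and without both WT 3 and KO 1 (0.85).

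KO 1 was also the highest library for several other antibody genes, chosen here with their values in view. Igha, the constant region of IgA, had 4, 38 and 8 counts in WT and 163, 20 and 11 in KO, with WT 2 above KO 2 and KO 3, and it did not meet the thresholds. Ighg2c and Ighg2b, constant regions of IgG, were spread more evenly. Ighg2c had 54, 2 and 43 counts in WT and 79, 21 and 1 in KO, and Ighg2b had 12, 1 and 3 counts in WT and 23, 19 and 0 in KO. KO 3 was the lowest library for both, and neither met the thresholds. Counts over the 348 variable segments of heavy, kappa and lambda chains summed to 13, 5 and 27 in WT and 204, 51 and 8 in KO. In KO 1 these came from 22 segments with at least 3 counts, Iglv1 the highest with 26. Segments are near copies of each other, so reads may be split among them. Relative to Ptprc counts, Igkc stood at 1.03, 0.480 and 0.381 in WT and at 7.46, 3.70 and 2.00 in KO, and Jchain at 0.207, 0.400 and 0.186 in WT and 2.50, 0.650 and 1.30 in KO. The genotypes did not overlap in these ratios, but Ptprc was lowest in KO 3, at 10 counts, where Igkc itself lay within the WT range. Relative to Cd68 counts, Igkc overlapped, at 0.566, 0.129 and 0.220 in WT and 1.32, 1.21 and 0.286 in KO, while Jchain had ratios of 0.113, 0.108 and 0.107 in WT and 0.442, 0.213 and 0.186 in KO. These ratios are given without a test.

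The B cell members Cd79a and Ms4a1 had at most 4 counts in a library. Cd79a, a signalling chain of the B cell receptor, had 3, 0 and 0 counts in WT and 4, 0 and 0 in KO. Ms4a1, which encodes CD20, had 1, 0 and 0 counts in WT and 0, 1 and 1 in KO. The 24 further B and plasma cell genes included 5 that were tested, none past the thresholds. Blnk, an adaptor of B cell receptor signalling, had 9 to 19 counts in every library, and Vpreb3, a gene of B cell precursors, had 111 counts in WT 1 and at most 1 elsewhere, both named with their values in view. Several genes of this list were not highest in KO 1. Derl3 had 7, 8 and 7 counts in WT and 2, 2 and 1 in KO, and Mzb1 had 13, 7 and 9 in WT and 7, 4 and 18 in KO. Prdm1 had 15, 4 and 22 counts in WT and 8, 15 and 15 in KO, and Tnfrsf17 had 1 count in WT 3 and 0 elsewhere. Among heavy chain constant regions, Ighd had 2, 6 and 3 counts in WT and 0, 1 and 1 in KO. Ighg3 had 6 counts in WT 3 and 0 elsewhere. Irf4, in contrast, was highest in KO 1 at 13 counts, with 2 to 9 elsewhere. Iglc1, of the lambda light chain, was also highest there, with 0, 0 and 1 counts in WT and 19, 4 and 2 in KO.

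Both neutrophil members were near the limit of detection, and S100a9 was lower in KO past the thresholds. S100a9 (chr3:90692632-90695721, GRCm38) had 26, 21 and 10 counts in WT 1, 2 and 3 and 6, 8 and 2 in KO 1, 2 and 3, or 1.05, 0.654 and 0.329 CPM and 0.242, 0.326 and 0.0748 CPM. The genotypes did not overlap, although KO 2 lay just under WT 3. The log2 fold change was -1.64 ± 0.60 (SE, edgeR adjusted p = 0.416), and it was -1.98 without WT 3 and missed the thresholds without WT 1 (-1.20) or without KO 3 (-1.23). S100a8, its partner, had 10, 8 and 4 counts in WT and 2, 7 and 1 in KO, with KO 2 inside the WT range, and was not tested.

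In contrast to the macrophage genes, the neutrophil members had their highest level in WT 1 and not in WT 3. Of 24 further neutrophil genes 2 were tested, and 17 had under 10 counts in total. Csf3r, the receptor for the neutrophil growth factor, was lower past the thresholds, as were 3.14% of all tested genes. It had 17, 17 and 15 counts in WT and 4, 10 and 1 in KO (-1.49 ± 0.62 SE, edgeR adjusted p = 0.471). It too passed the filter through WT. Lcn2, the other tested gene, had 46, 25 and 14 counts in WT and 19, 3 and 5 in KO. Lcn2 did not meet the thresholds. Without WT 3 Csf3r met them at -1.58 and Lcn2 at -1.86. Among the untested genes, Ly6g had 0 counts in every library. Camp had 0 counts in every WT library and 2, 2 and 1 in KO. Red blood cell markers summed to 205, 293 and 174 CPM in WT 1, 2 and 3 and 155, 165 and 142 CPM in KO 1, 2 and 3. They were lower in every KO library, with Hbb-bs at -0.68 ± 0.18 (SE) and Hbb-bt at -0.69 past the thresholds. The part of blood left in the muscle in the neutrophil and antibody values was not tested.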

How the data were processed

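Per the labels, RNA libraries were prepared with a NEBNext Ultra kit, and the authors used Hisat2 for alignment of the paired reads and featureCounts for the reads per gene. The deposited values are raw counts of 55416 genes in 6 libraries, without normalization. The study's methods name GRCm38 and the submitters' processing notes GRCm39, and 1546 of 52135 placed genes have the position of GENCODE M21, so positions printed here come from M21 and those in the count table were used for exon overlaps only. Handling of strand and of reads with several positions is not given in the sources used here. The first WT column carries no number and was taken as replicate 1.

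Symbols were matched by identifier for 52083 genes. Genes were kept with filterByExpr (minimum count 10), scaled by TMM and compared with edgeR's quasi-likelihood test (edgeR 4.0.16, R 4.3.3, robust estimation) with Benjamini-Hochberg adjustment over 15623 genes. Fold changes are KO over WT. Depth was 25351976 to 29111213 counts per library. Replicates of a genotype differed by more than sampling noise (chi-square per degree of freedom 21.0 to 79.3). The steps were tested on simulated counts. The members and lists were chosen with earlier results of these data known. Named are all members, the genes of further lists past the thresholds (at most 4 per list), and summed levels of other cell types. Igha, Ighg2b, Ighg2c, Blnk, Vpreb3, Derl3, Mzb1, Prdm1, Tnfrsf17 and Irf4 are outside this rule and were named after their values were seen. So were Zap70, Thy1, Foxp3, Ighd, Ighg3, Iglc1, Lcn2, Ly6g and Camp. The same holds for the single lymph node stroma genes and for the overlapping Gm48719, Gm49368, Hmgxb3 and Crybg2. Csf1r and Cd74 are named without positions. The alternatives were DESeq2 1.42.0, its size factors, library totals, other filters, robust estimation turned off, mitochondrially encoded genes left out, the replicate number as a block, each library left out, and, chosen after seeing the data, WT 3 and KO 1 left out together, WT 3 left out for the further lists, and other denominators for ratios.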

Additional observations from a re-analysis of the deposited data

How the results depend on the processing

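The 8 members past the thresholds were 14 with DESeq2, 19 without a filter on low counts, 13 with robust estimation off and 0 at an adjusted p under 0.05. Of all tested genes 4.94%, 5.6% and 5.88% met the thresholds in the first 3 of these settings. When a library was left out the members were 5 to 15, with 5 without WT 1 (4.89% of all tested genes) or WT 3 (5.77%) and 15 without WT 2 (6%). The 6 lower members were 11, 17 and 10 with DESeq2, without a filter and with robust estimation off, beside 3.06%, 3.66% and 3.55% of all tested genes. They were 3 without WT 3 (3.25% of all tested genes) to 14 without WT 2 (3.67%). The 2 higher members were 1 with library totals in place of TMM, with at least 10 counts in every library, with the replicate block, and with WT 3 and KO 1 both left out, and 1 to 3 when 1 library was left out. The 836 genes of the whole table were 1792 with library totals (80 higher and 1712 lower) and 1780 without a filter. The median of the T cell members was 0.0083 without a filter, when the genes near 0 enter it. With a library left out the median of the shared leukocyte genes ran from -1.37 (without WT 2) to -0.35 (without WT 3) and that of the class II genes from -1.25 (without WT 2) to -0.31 (without WT 3). The signs of Itgam (0.23 without WT 3, down to -0.86 without KO 1), Mrc1 (0.027 without WT 3 and KO 1), Cd163 (-0.0071 with library totals) and Cd68 (-0.24 with library totals, and -0.47 to 0.53 over the libraries left out, negative without WT 1, WT 2 or KO 1) changed. Of the values of single members under an alternative, 379 kept their direction and side of the thresholds, 34 passed the thresholds newly, 19 missed them and 7 changed sign. The cause of these changes was not tested.

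The replicate numbers gave no sign of pairing: same-numbered libraries deviated from their genotype means with correlations of 0.06, 0.04 and -0.07. Libraries with different numbers had correlations of -0.14 to 0.09. With 3 libraries per genotype these values cannot exclude a shared litter or cage. With the replicate block 6 members and 890 genes met the thresholds, and H2-Eb1 (-0.85) and Jchain (1.27) did not. Cx3cr1 and S100a8, with at most 22 and 10 counts in a library, and Cd3g, Cd4, Cd8a, Cd79a and Ms4a1, with at most 4, are limited by depth.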
